A study of Ananas comosus with 9 samples.

Results

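The peel of pineapple fruit (Ananas comosus) was compared between 60 and 90 days after flowering (DAF) by RNA sequencing, across 16791 of the 26730 genes of the deposited table. These are all genes that reached 1 FPKM (a level of reads scaled to gene length and library depth) in at least 3 of the 9 libraries of the series. The series holds 3 libraries of peel at each of 60, 90 and 120 DAF and, by its title, addresses anthocyanins and the loss of peel colour during maturation. The 3 libraries of 60 DAF and the 3 of 90 DAF were compared here, and those of 120 DAF entered the statistical fit and are shown for reference. All are untreated peel as far as the labels go, which give no cultivar, no pooling of fruits and no hour of harvest. Nothing in the labels states that the libraries within an age are from different fruits or plants, so each p-value reflects the spread among these 9 samples alone, which may be technical.

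A pineapple is a fused mass of fruitlets, and its peel is made of their outer tissues, with a waxy cuticle over green cells in the young fruit. Growing fruit imports sucrose, which sucrose synthase cleaves in sink tissues. Carbon from glycolysis can be turned into organic acids by phosphoenolpyruvate (PEP) carboxylase and malate dehydrogenase, and proton pumps of the vacuolar membrane energise the storage of acids and sugars. In Arabidopsis the circadian clock sets morning-expressed repressors such as LHY against later-expressed genes such as GIGANTEA, and much of photosynthesis, starch and hormone gene expression follows a daily course.

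Library totals ran from 35038248 to 52937826 counts over the 9 libraries. Replicates spread more at 90 DAF than at 60 DAF (biological coefficients of variation 0.504 and 0.355). Replicates 2 and 3 of 90 DAF stood apart in different ways. A named gene whose fitted fold moves by more than 1.5 times without 1 library of 60 or 90 DAF is given also without it. Replicate 3 correlated with replicates 1 and 2 at 0.911 and 0.871 on log2 counts scaled to depth, and replicate 2 carried far more photosynthesis RNA than the other libraries. The labelled tissue was checked with marker lists. The 35 tested genes of cutin, suberin and wax synthesis summed to 478 to 549 FPKM at 60 DAF and 645 to 754 FPKM at 90 DAF, and the 18 tested light-harvesting genes were present at both ages. Cysteine peptidases, the class of the flesh enzyme bromelain, summed to 7032 to 8381 and 5943 to 9241 FPKM, and class III peroxidases to 973 to 1876 and 1244 to 1562 FPKM. Seed storage and oil body genes summed to 214 to 315 and 231 to 421 FPKM over 13 tested genes. Core histones and laccases had 0 members in the table's annotation as used here and were not analysed. In bulk tissue, fewer cells of a type and less RNA per cell cannot be told apart.

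Between 60 and 90 DAF, edgeR's quasi-likelihood test called 132 of the 16791 genes at an adjusted p under 0.05, which is 0.786% of them. Of these, 54 (0.322%) were higher and 78 (0.465%) lower at 90 DAF, with median log2 fold changes of 1.96 and -2.07. More than 8-fold changes were fitted for 8 genes that rose and 22 that fell. In all 132 the 3 libraries of 90 DAF lay outside the range of the 3 of 60 DAF after depth scaling, as they did for 3790 (22.6%) of all genes tested. At an unadjusted p under 0.05 there were 2845 genes (16.9%), of which 1458 (8.68%) were higher and 1387 (8.26%) lower. DESeq2 called 1437 genes (8.56%), all 132 among them, and limma on log2(FPKM + 1) called 293 (1.74%), of which 125 were among the 132. Of the calls, 7 higher and 9 lower genes reached 1 FPKM in fewer than 3 libraries outside the age where they are high, so that they entered the test through that age. At 120 DAF the level of 34 of the 54 genes that rose and of 55 of the 78 that fell was nearer to that of 60 DAF than to that of 90 DAF, on a log scale. These genes were selected by their difference between 60 and 90 DAF, and the same count was not made over all genes. No general return at 120 DAF is read from it.

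The number of edgeR calls depended on single libraries, while the direction of the 132 genes turned under no setting tried. The adjusted p-values of the calls lay between 0.0230 and 0.0497, just under the threshold. The count was 3 without replicate 1 of 60 DAF and 0 without replicate 2 or replicate 3 of that age, which left 2053 and 2003 genes at an unadjusted p under 0.05. It was 5 without replicate 1, 276 (1.64%) without replicate 2 and 27 without replicate 3 of 90 DAF, and 38, 179 and 1 without replicates 1, 2 and 3 of 120 DAF. Each call below was therefore lost when replicate 2 or 3 of 60 DAF was left out, and is to be read beside the values of the single libraries.

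Several transcription factor genes of the circadian clock fell. Of 77 tested genes of the KEGG plant circadian rhythm pathway, 5 fell by edgeR (6.49% called, against 0.786% of all genes). The 5 are 2 orthologs of LHY, a morning-expressed MYB-type repressor, and 3 orthologs of TCP21, also named CHE, which in Arabidopsis binds the promoter of the LHY partner CCA1. Aco011903, an LHY ortholog, had 27.8, 108 and 51.3 FPKM in the 3 libraries of 60 DAF and 0.779, 0.170 and 2.05 FPKM in those of 90 DAF, a log2 fold change of -5.90 ± 0.95 (SE, n = 3 per age, edgeR adjusted p = 0.0423). The lowest library of 60 DAF was far above the highest of 90 DAF, and the libraries of 120 DAF lay between, at 8.41, 9.46 and 11.8 FPKM. Its log2 fold change was -7.07 without replicate 3 of 90 DAF and -5.25 without replicate 2 of 60 DAF. Aco009204, the second LHY ortholog called, went from 7.39, 14.6 and 11.1 to 3.10, 1.95 and 2.79 FPKM (-2.07 ± 0.32, edgeR adjusted p = 0.0384). All 9 tested genes with the LHY ortholog code had negative log2 fold changes, 5 of them at an unadjusted p under 0.05 (background for lower genes, 8.26%). Among the others, Aco016649, chosen after its values were seen, stood at 21.4, 30.5 and 24.2 FPKM and then 3.55, 7.45 and 1.58 FPKM (-2.63 ± 0.48, edgeR adjusted p = 0.0582). Without replicate 2 of 90 DAF its log2 fold change was -3.33 and its adjusted p 0.0285, within 4.88e-06 to 0.177 over all alternatives.

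Among the TCP21 orthologs, Aco001684 had 14.96, 21.9 and 16.1 FPKM at 60 DAF and 2.10, 1.17 and 1.88 FPKM at 90 DAF (-3.36 ± 0.32, edgeR adjusted p = 0.0230). Aco009612 went from 21.1, 32.6 and 43.1 to 6.05, 5.72 and 2.71 FPKM (-2.76 ± 0.40, adjusted p = 0.0367) and Aco018657 from 10.4, 19.97 and 15.6 to 3.61, 4.21 and 1.97 FPKM (-2.25 ± 0.36, adjusted p = 0.0398). In none of the 3 did a library of 90 DAF reach the lowest of 60 DAF, as in every gene called lower. The fourth tested TCP21 ortholog was also lower at an unadjusted p under 0.05. The tested orthologs of GIGANTEA and PRR7, which the clock expresses later than LHY in Arabidopsis, stood higher but were not called. GIGANTEA (Aco014347, chosen after its values were seen) had 88.9, 21.996 and 39.9 FPKM at 60 DAF and 281, 275 and 209 FPKM at 90 DAF (2.30 ± 0.47, edgeR adjusted p = 0.0717), with no overlap between the ages, and 3.05 without replicate 1 of 60 DAF. Both tested orthologs of PRR7, a pseudo-response regulator that represses LHY in Arabidopsis, were chosen likewise. Aco011012 stood at 91.4, 59.0 and 59.7 and then 137, 142 and 144 FPKM (0.995 ± 0.23, adjusted p = 0.0924), and Aco001519 at 44.7, 16.9 and 37.9 and then 58.4, 97.5 and 51.6 FPKM (1.03 ± 0.37, adjusted p = 0.221). Over the whole pathway 16 genes (20.8%) were lower and 7 (9.09%) higher at an unadjusted p under 0.05, against 8.26 and 8.68% of all genes. The share of higher genes was thus near the background. The median log2 fold change was -0.12, against 0.03 over all genes tested. It was -0.40 without replicate 2 of 90 DAF. With no hour of harvest in the labels, fruit age and time of day cannot be told apart for these genes. The same limit holds for genes of photosynthesis, starch and hormones below that follow a daily course.

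**Figure D1:**
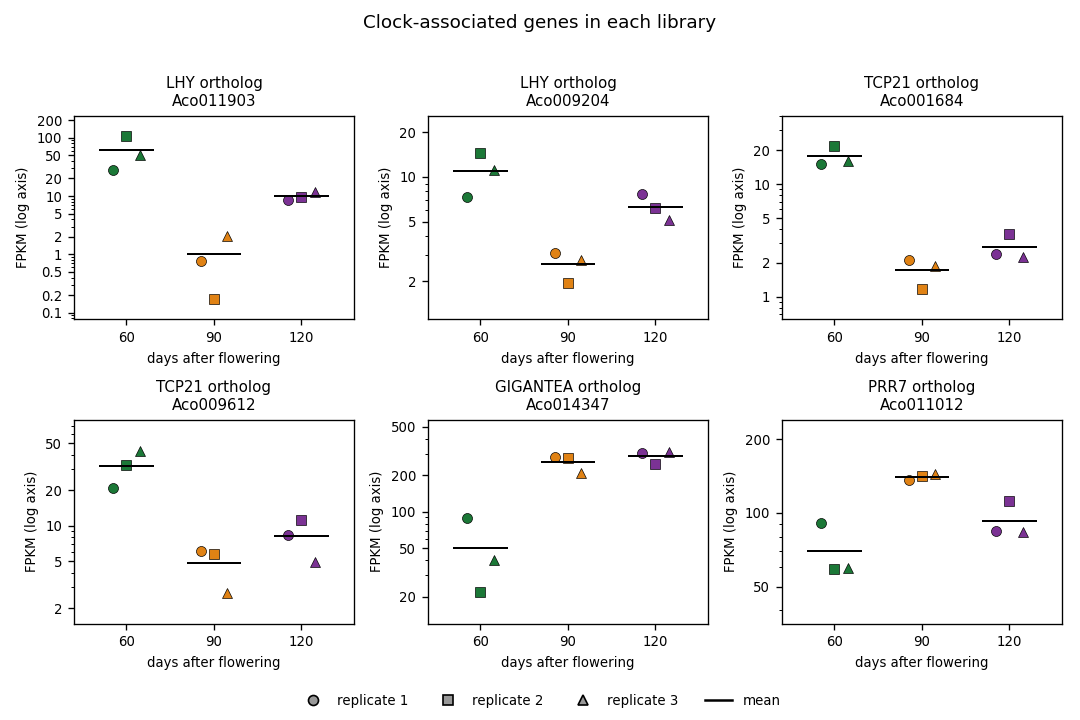
FPKM of 6 clock-associated genes in each library (log axes), by days after flowering, with replicates as symbols and the mean of each age as a line. The LHY and TCP21 orthologs sit lower in all 3 libraries of 90 DAF than in any of 60 DAF, with Aco011903 at 0.170 to 2.05 FPKM against 27.8 to 108 FPKM, and GIGANTEA and the PRR7 ortholog sit higher.

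Single genes of sucrose cleavage, starch synthesis, glycolysis and acid synthesis fell, and the sucrose synthase and PEP carboxylase among them were the most abundant of their families at 60 DAF. Sucrose synthase Aco006349 had 497, 659.5 and 700.0 FPKM at 60 DAF and 129, 129 and 38.1 FPKM at 90 DAF (-2.70 ± 0.40, edgeR adjusted p = 0.0384). Replicate 3 of 90 DAF was the lowest library, and the libraries of 120 DAF were back at 508, 458 and 427 FPKM. It was the one member called of 5 sucrose synthases tested. Aco024370, a second member chosen after its values were seen, stood at 19.8, 29.4 and 20.4 and then 42.8, 52.1 and 72.5 FPKM (1.29 ± 0.36, adjusted p = 0.140). Sucrose-phosphate synthase makes sucrose from UDP-glucose and fructose 6-phosphate. Its gene Aco017378, also chosen after its values were seen, stood at 157, 36.1 and 69.6 and then 2.80, 7.51 and 0.778 FPKM (-4.64 ± 0.87, edgeR adjusted p = 0.0598). The adjusted p was 0.0440 without replicate 2 of 90 DAF, within 6.14e-08 to 0.166 over all alternatives. The log2 fold change was -5.67 without that library and -3.87 without replicate 1 of 60 DAF.

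In starch synthesis, starch synthase Aco010848 fell from 43.0, 73.002 and 55.8 to 13.4, 14.7 and 8.77 FPKM (-2.24 ± 0.22, edgeR adjusted p = 0.0230). It was the 1 member called of 8 starch synthases tested, of which 4 had positive and 4 negative log2 fold changes. At an unadjusted p under 0.05, 4 of the 8 were lower and 0 higher. Chloroplastic phosphoglucomutase Aco017741, which supplies glucose 1-phosphate to starch, fell from 66.6, 59.4 and 56.6 to 16.3, 21.0 and 12.9 FPKM (-1.89 ± 0.19, adjusted p = 0.0230). A gene annotated with starch binding, Aco000477, fell as well, from 68.5, 95.2 and 102 to 32.6, 40.3 and 22.2 FPKM (-1.50). In these 3 genes no library of 90 DAF reached the lowest of 60 DAF, as in every gene called lower. Replicate 3 was the lowest of its age in all 3. A further pair of genes of the route were chosen after their values were seen. Granule-bound starch synthase Aco023992 stood at 324, 209 and 369 and then 86.6, 70.4 and 153 FPKM (-1.52, edgeR adjusted p = 0.133), and ADP-glucose pyrophosphorylase Aco006199, which makes the glucosyl donor, at 17.9, 15.6 and 17.1 and then 2.11, 3.69 and 1.16 FPKM (-2.90, adjusted p = 0.0785). Of 224 tested genes of the starch and sucrose pathway 3 fell by edgeR (1.34%, against 0.786% of all genes). At an unadjusted p under 0.05, 10.7% of the pathway was lower and 12.1% higher, against 8.26 and 8.68% of all genes, and its median log2 fold change was 0.02. The pathway as a whole was thus near the background.

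In glycolysis and acid synthesis, glyceraldehyde 3-phosphate dehydrogenase Aco018596 fell from 1276, 1355 and 1272 to 684, 493 and 376 FPKM (-1.36 ± 0.19, edgeR adjusted p = 0.0367). PEP carboxylase Aco010025, which fixes bicarbonate onto PEP, had 684, 801 and 1076 FPKM at 60 DAF and 193, 178 and 54.2 FPKM at 90 DAF (-2.64 ± 0.41, adjusted p = 0.0384). It was the most abundant of 5 tested PEP carboxylases at 60 DAF, and no other was called. The abundant malate dehydrogenase Aco013935, of the cytosolic ortholog class, stood at 1262, 1308 and 1334 and then 631, 699.8 and 373 FPKM (-1.23 ± 0.22, edgeR adjusted p = 0.0529), without overlap. Its adjusted p was 0.0440 without replicate 2 of 90 DAF, within 2.97e-06 to 0.189 over all alternatives. Another malate dehydrogenase, Aco004996, stood higher at 90 DAF, at 40.8, 45.5 and 36.2 and then 124, 194 and 69.7 FPKM (1.63 ± 0.30, adjusted p = 0.0591, chosen after its values were seen). NADP-malic enzyme Aco009967, which decarboxylates malate and was chosen likewise, stood at 26.6, 21.8 and 10.4 and then 75.2, 51.9 and 181 FPKM (2.43, adjusted p = 0.1199). Its log2 fold change was 1.61 without replicate 3 of 90 DAF, its highest library. The other of the 2 tested NADP-malic enzymes was far more abundant and was not called (-0.29). The sums of both were 539, 438 and 384 FPKM and then 462, 407 and 517 FPKM, which overlap. The aconitase gene Aco009034 fell from 5.30, 4.10 and 10.9 to 0.151, 0.480 and 0.172 FPKM (-4.64 ± 0.65, edgeR adjusted p = 0.0367). Without replicate 2 of 90 DAF its log2 fold change was -5.31. It was a minor aconitase by level, and the 6 other aconitases tested were not called. All 7 summed to 629, 537 and 496 FPKM at 60 DAF and 745, 407 and 553 FPKM at 90 DAF, which overlap. Of 126 tested glycolysis genes 2 fell (1.59% called), with 28 (22.2%) lower and 6 higher at an unadjusted p under 0.05. Of 58 citrate cycle genes 2 fell (3.45% called), with 12 (20.7%) lower and 3 higher at an unadjusted p under 0.05. Over all genes 0.786% were called, and 8.26% were lower and 8.68% higher at an unadjusted p under 0.05. Where copies of an enzyme are near-identical, the counting could split reads between them, so values of single copies are uncertain to that extent.

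**Figure D2:**
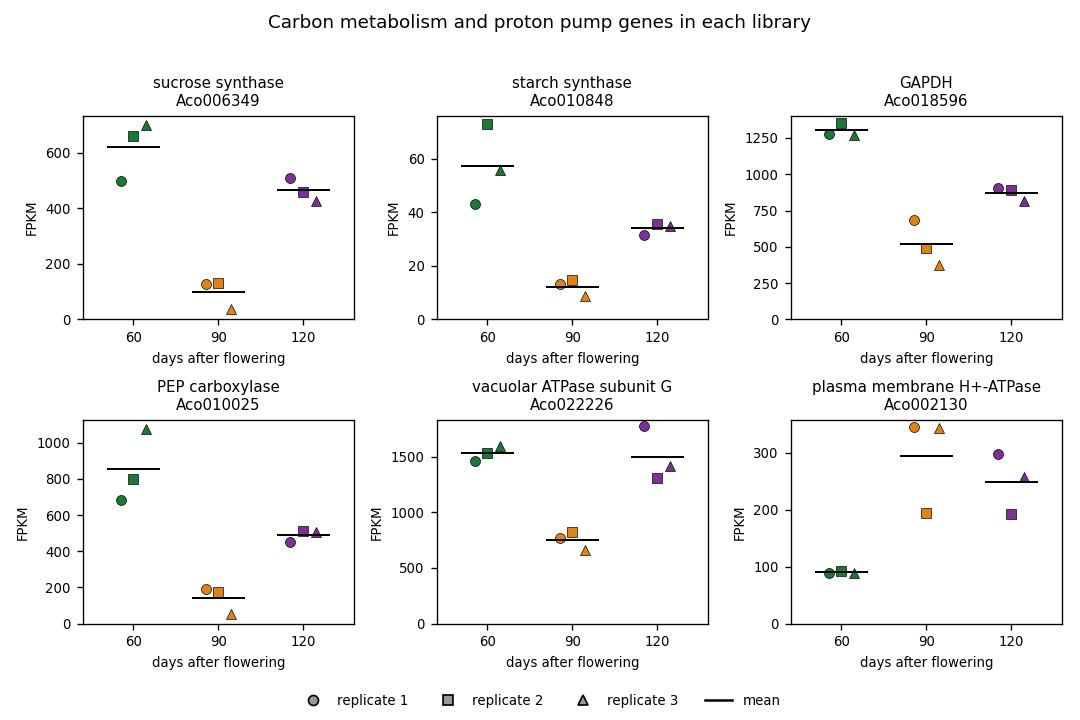
FPKM of 6 genes of carbon metabolism and proton pumping in each library (linear axes from 0), by days after flowering, with replicates as symbols and the mean of each age as a line. The first 5 genes are lower in every library of 90 DAF than in any of 60 DAF, and the plasma membrane H+-ATPase, at 88.1 to 93.1 FPKM and then 194 to 345 FPKM, is higher.

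Subunit genes of the respiratory chain and of the vacuolar proton pump stood lower at 90 DAF, by small amounts. Of 139 tested genes of oxidative phosphorylation 6 fell and 1 rose by edgeR (5.04% called, against 0.786% of all genes). At an unadjusted p under 0.05, 45 (32.4%) were lower and 6 (4.32%) higher, against 8.26 and 8.68% of all genes. Negative log2 fold changes were fitted for 97 of the 139, and for 7904 of all 16791 genes. The median log2 fold change of the 139 was -0.25, against 0.03 over all genes tested. It lay between -0.29 and -0.23 when each library was left out in turn. The most abundant of the genes that fell was subunit G of the vacuolar proton ATPase (Aco022226), which acidifies the vacuole, with 1459.5, 1531 and 1597 FPKM at 60 DAF and 766, 822 and 661 FPKM at 90 DAF (-1.04 ± 0.17, edgeR adjusted p = 0.0425). Subunit g of mitochondrial ATP synthase (Aco005664) fell from 141, 130.4 and 139.5 to 74.3, 61.99 and 47.6 FPKM (-1.18 ± 0.15, adjusted p = 0.0299). In complex I, which oxidises NADH, Aco011929 (NDUFB7 type) fell from 249, 260.5 and 269 to 147, 149.6 and 135 FPKM (-0.86) and the iron-sulfur subunit Aco022481 from 169, 200.4 and 205 to 122, 117 and 95.8 FPKM (-0.79). A succinate dehydrogenase subunit (Aco014511, -0.96) and a cytochrome bc1 subunit (Aco021806, -0.91) were the other 2 that fell. In all 6 genes every library of 90 DAF was below every library of 60 DAF, as in every gene called lower. The ages did not overlap in 22.6% of all genes tested.

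By complex, the lower genes were counted at an unadjusted p under 0.05, for which the background is 8.26%. They were 10 of 16 genes of mitochondrial ATP synthase, 14 of 32 of complex I, 3 of 5 of complex II and 4 of 10 of complex III. In complex IV it was 1 of 11, and in the vacuolar ATPase 12 of 30. Median log2 fold changes were -0.53 for ATP synthase, -0.38 for complex I, -0.29 for the vacuolar ATPase and 0.08 for complex IV. Differences between complexes were not tested. The one gene of the pathway that rose was the plasma membrane H+-ATPase Aco002130, which pumps protons out of the cell, from 88.1, 93.1 and 88.6 to 345, 194 and 343 FPKM (1.71 ± 0.29, edgeR adjusted p = 0.0436). The 3 libraries of 60 DAF were nearly equal, and replicate 2 of 90 DAF was the lowest of its age. The other 10 tested plasma membrane H+-ATPases were not called.

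**Figure D3:**
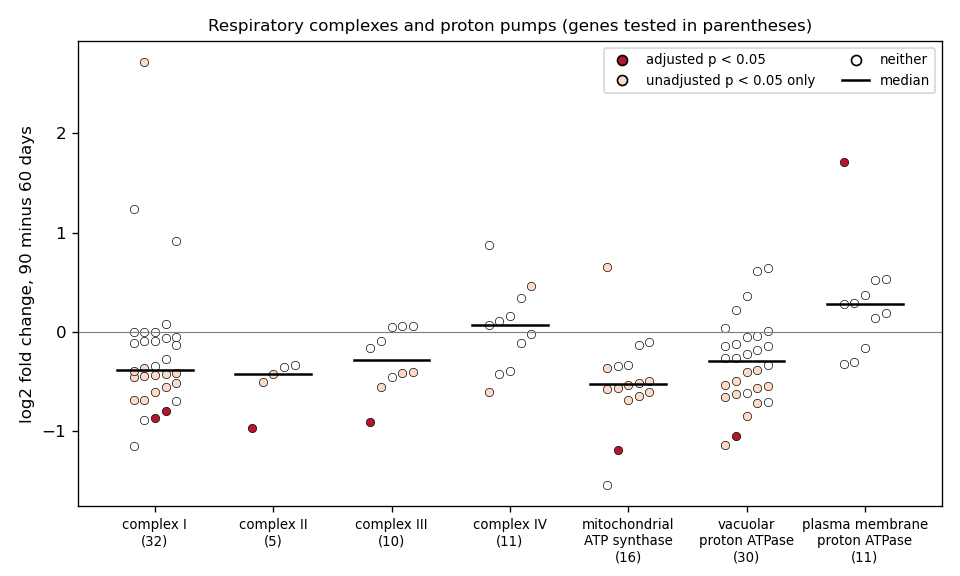
Log2 fold change (90 minus 60 DAF) of each tested gene of the respiratory complexes and proton pumps, with filled colours for adjusted and unadjusted p under 0.05 and a line at the median of each complex. Most genes of complex I, complex II, ATP synthase and the vacuolar ATPase lie below 0, those of complex IV lie on both sides, and 1 plasma membrane ATPase stands at 1.71.

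Light-harvesting genes stood higher at 90 DAF, by an amount that depended on replicate 2. The 18 tested light-harvesting genes summed to 123, 249.9 and 175 FPKM at 60 DAF and 584, 2756 and 348 FPKM at 90 DAF. Every library of 90 DAF was above every library of 60 DAF, and replicate 2 stood far above both others of its age. Over all 73 tested genes of the light reactions the sums were 1718, 2752 and 2119 FPKM and then 3157, 11267 and 1968 FPKM, and here replicate 3 of 90 DAF lay within the range of 60 DAF. Of these genes 1 rose by edgeR (1.37% called, against 0.786% of all genes), and 30 were higher at an unadjusted p under 0.05 (41.1%, against 8.68%). The median log2 fold change was 1.44, against 0.03 over all genes tested. Without replicate 2 of 90 DAF the median was 0.41, with 3 called, where that fit called 1.64% of all genes. In that fit 12 of the 73 were higher at an unadjusted p under 0.05, as were 10.1% of all genes. Without replicate 3 the median was 1.83. The light-harvesting genes alone had a median of 2.14, and of 1.05 without replicate 2.

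The one called was Aco003394, a chlorophyll a/b-binding protein of photosystem II, with 6.74, 9.60 and 6.79 FPKM at 60 DAF and 94.1, 501 and 56.0 FPKM at 90 DAF (4.77 ± 0.80, edgeR adjusted p = 0.0433). Without replicate 2 of 90 DAF its log2 fold change was 3.27. The other 2 genes called in that fit were chosen after their values were seen. Aco018510 of photosystem I stood at 18.2, 20.8 and 10.4 and then 95.0, 329 and 75.7 FPKM (3.30, and 2.37 without replicate 2, edgeR adjusted p = 0.0605, 0.0495 without replicate 2, 3.44e-06 to 0.210 over all alternatives). Aco026888 of photosystem II stood at 6.37, 8.07 and 6.50 and then 24.5, 104 and 19.1 FPKM (2.78, and 1.65 without replicate 2, adjusted p = 0.0824, 0.0423 without replicate 2, 1.43e-04 to 0.257 over all alternatives). In both, replicate 2 was again the highest and replicates 1 and 3 of 90 DAF were still above all of 60 DAF. Ferredoxin gene Aco024340, whose product carries electrons from photosystem I and which was the most abundant of the light reaction genes, stood at 325, 316 and 308 and then 444, 569 and 331 FPKM (0.48, adjusted p = 0.229).

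Outside the photosynthesis lists, some called genes annotated to chloroplasts or plastid pathways were higher and others, such as zeaxanthin epoxidase and the chloroplastic phosphoglucomutase above, lower. No list of plastid genes was counted. Aco004218 encodes PnsB5, which belongs to the NDH complex that takes part in cyclic electron flow in chloroplasts, and had 2.09, 5.18 and 3.03 FPKM and then 71.3, 228 and 18.7 FPKM (4.89 ± 0.84, edgeR adjusted p = 0.0475), and 3.66 without replicate 2, which was its highest library. A chloroplastic thioredoxin-like gene (Aco004156) rose from 3.02, 5.16 and 4.81 to 22.8, 41.9 and 21.9 FPKM (2.72 ± 0.36), and a GTPase annotated to the plastid and to translation (Aco011468) from 12.4, 15.2 and 18.5 to 59.5, 72.0 and 88.9 FPKM (2.27 ± 0.31). The GTPase was highest in replicate 3 of 90 DAF, the library with the lowest light reaction sum of its age. For the next pair the table gives no compartment. Chaperonin Aco010414 (GroEL type) rose from 64.3, 69.1 and 63.9 to 185, 241 and 110.0 FPKM (1.41), and a folding protein annotated as an activator of superoxide dismutase (Aco009501) from 38.0, 39.7 and 32.1 to 128, 137 and 93.3 FPKM (1.68). Deoxyxylulose phosphate reductoisomerase (Aco016409), an early enzyme of the plastid isoprenoid route, rose from 92.5, 128 and 95.3 to 278, 227 and 176 FPKM (1.09). Its predecessor in that route, a deoxyxylulose phosphate synthase (Aco017444, chosen after its values were seen), stood at 18.6, 36.5 and 19.02 and then 270.5, 181 and 234.1 FPKM (3.21, edgeR adjusted p = 0.0574). Zeaxanthin epoxidase Aco010449, of carotenoid synthesis, fell from 7.07, 6.59 and 6.39 to 2.01, 1.85 and 1.54 FPKM (-1.86).

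**Figure D4:**
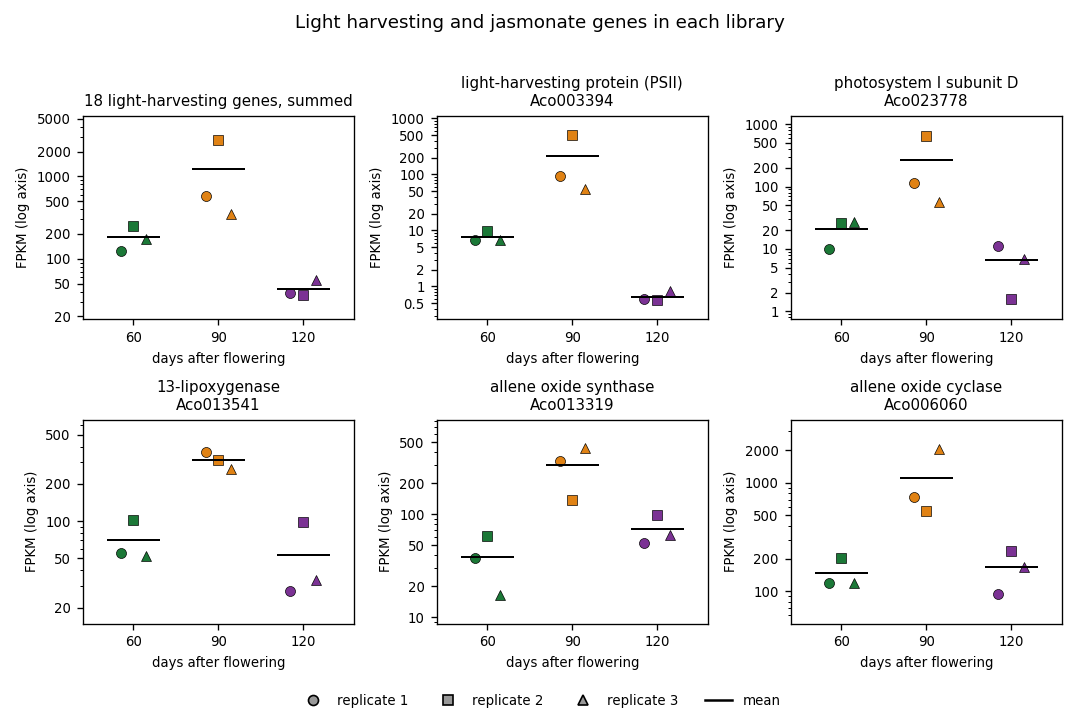
FPKM of light-harvesting genes (summed over 18 genes), 2 photosynthesis genes and 3 jasmonate synthesis genes in each library (log axes), by days after flowering, with replicates as symbols and the mean of each age as a line. Replicate 2 of 90 DAF is highest in the 3 photosynthesis panels, at 2756 FPKM in the summed one, and is not the highest in the 3 jasmonate panels. Photosystem I subunit D (Aco023778) was chosen after its values were seen and was not called (edgeR adjusted p = 0.142). Its log2 fold change was 3.65, and 2.01 without replicate 2 of 90 DAF.

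Single genes of several hormone pathways changed. Of 259 tested genes of hormone signalling 2 rose and 4 fell by edgeR (2.32% called, against 0.786% of all genes). At an unadjusted p under 0.05, 11.2% were higher and 11.6% lower, near the 8.68 and 8.26% of all genes. The Aux/IAA gene Aco005634, a repressor of auxin response, had 26.2, 31.0 and 49.9 FPKM at 60 DAF and 2.81, 2.24 and 1.94 FPKM at 90 DAF (-3.95 ± 0.35, edgeR adjusted p = 0.0230), and 86.4, 60.2 and 40.9 FPKM at 120 DAF. It is 1 of 12 tested Aux/IAA genes, 10 of which had negative log2 fold changes, and of which the most abundant, Aco010797, stood at 216, 189 and 280.4 and then 236.7, 332 and 223 FPKM. In cytokinin signalling the type-A response regulator Aco003366, which damps the response in Arabidopsis, fell from 874, 631 and 1012 to 275, 290.2 and 249.7 FPKM (-1.64 ± 0.21, adjusted p = 0.0305). The type-B gene Aco016830, of a class that activates transcription, rose from 7.16, 1.63 and 3.44 to 39.0, 37.5 and 26.4 FPKM (3.02 ± 0.50, adjusted p = 0.0429). Without replicate 1 of 60 DAF its log2 fold change was 3.75. Of the 18 tested type-B genes 14 had negative log2 fold changes, with 3 lower and 1 higher at an unadjusted p under 0.05 and a median of -0.43. A gene with the ortholog code of DELLA proteins, the repressors of gibberellin response, fell from 2.19, 2.86 and 1.27 to 0.156, 0.129 and 0.0558 FPKM (Aco004673, -4.13 ± 0.59), and passed the filter only through 60 DAF. TGA factor Aco001167, which acts with the salicylate receptor, fell from 56.2, 53.3 and 48.9 to 25.3, 22.8 and 25.9 FPKM (-1.103). The ethylene receptor gene Aco004737 had 0 counts in all 3 libraries of 60 DAF and 2.003, 3.02 and 1.23 FPKM at 90 DAF, at least 110.5-fold higher against a floor of 3 counts over the age. It passed the filter of 1 FPKM only through the libraries of 90 DAF, where it is high, so its call is no support for a change of the pathway. The other 7 tested receptors were not called.

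Several genes of jasmonate synthesis and response stood higher at 90 DAF, and none was called. In the jasmonate list edgeR called 0 of 27 tested genes. At an unadjusted p under 0.05, 7 (25.9%, against 8.68% of all genes) were higher and 1 lower, and the median log2 fold change was 0.49. Without replicate 3 of 90 DAF these were 4 higher (9.89% of all genes in that fit) and a median of 0.34. DESeq2 called 6 of the list higher and limma 2, where they called 8.56 and 1.74% of all genes in either direction. In the alpha-linolenic acid pathway, which makes jasmonate, edgeR called 0 of 65, with 15 (23.1%) higher and 2 (3.08%) lower by unadjusted p, against 8.68 and 8.26% of all genes. Without replicate 3 of 90 DAF 12 were higher. DESeq2 called 11 of the pathway higher and 2 lower, limma called 5 higher, and the median was 0.03, or -0.07 without replicate 3. Allene oxide cyclase Aco006060, the most abundant gene of that pathway, had 119, 201 and 118 FPKM and then 747, 550.0 and 2042 FPKM (2.99 ± 0.61, edgeR adjusted p = 0.0679). Without replicate 3 of 90 DAF, its highest library, the log2 fold change was 2.08 and the adjusted p 0.0751. Without replicate 2 they were 3.33 and 0.0446, and the adjusted p ran from 1.67e-05 to 0.241 over all alternatives. The steps before it were chosen after their values were seen. The 13-lipoxygenase Aco013541 stood at 55.0, 102 and 52.2 and then 361, 311 and 265 FPKM (2.15 ± 0.48, adjusted p = 0.0900), and allene oxide synthase Aco013319 at 37.4, 61.7 and 16.4 and then 328, 139 and 436 FPKM (2.99 ± 0.60, adjusted p = 0.0649). JAZ repressors, which jasmonate induces in Arabidopsis, stood the same way. Aco023684, the most abundant of the jasmonate list, had 51.9, 61.8 and 7.32 FPKM and then 719, 201 and 999 FPKM (4.01 ± 0.94, edgeR adjusted p = 0.0959), and 4 of 7 tested JAZ genes were higher at an unadjusted p under 0.05. In the jasmonate genes named here the ages did not overlap, as in 22.6% of all genes tested. Some of them were chosen after their values were seen, so no support is drawn from it. Replicate 3 of 90 DAF was the highest library in Aco006060, Aco013319 and Aco023684. Without it the log2 fold changes of Aco013319 and Aco023684 were 2.52 and 3.42.

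Membrane transport genes changed in both directions. A pair of neighbouring genes annotated as voltage-gated anion channels rose, Aco006063 from 7.05, 9.68 and 8.63 to 246, 62.6 and 85.8 FPKM (3.92 ± 0.51, edgeR adjusted p = 0.0338) and Aco006064 from 4.79, 5.35 and 5.80 to 61.5, 17.4 and 25.2 FPKM (2.67 ± 0.42, adjusted p = 0.0384). They lie next to each other on contig 17 between positions 9244880 and 9271632 of the deposited table, whose genome build is not given in the sources used here, and reads of such copies could be split. Replicate 1 of 90 DAF was the highest in both, and without it the log2 fold changes were 3.19 and 2.06, while the libraries of 120 DAF stayed high, at 133, 194 and 238 FPKM for Aco006063. Of 11 tested ABC transporters of the ABCC class, many of which carry conjugates into the vacuole, 3 fell, Aco005539 (-1.59), Aco000353 (-1.48) and Aco009944 (-1.45). Of all genes tested 0.465% were called lower. A potassium transporter gene (Aco020645) fell from 11.7, 34.3 and 28.1 to 2.21, 4.50 and 2.14 FPKM (-3.07 ± 0.52), and an antiporter annotated to xenobiotic transport (Aco000295) from 5.38, 6.80 and 4.94 to 0.0872, 0.275 and 0 FPKM (-5.53, and -6.74 without replicate 2 of 90 DAF). The antiporter gene passed the filter only through 60 DAF. An ATP carrier (Aco004321) fell from 125, 135 and 130.2 to 67.6, 65.4 and 50.5 FPKM (-1.11 ± 0.12), without overlap.

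In the lists of the peel surface and of phenolic synthesis single genes were called. The wax alkane gene Aco008234, of the CER1 class, rose from 1.44, 1.0998 and 0.868 to 11.2, 4.84 and 8.54 FPKM (2.83 ± 0.40, edgeR adjusted p = 0.0367), the one member called of 35. Of this list 11.4% passed an unadjusted p under 0.05, against 16.9% of all genes. A lipid transfer gene (Aco012545) rose from 30.8, 12.7 and 21.2 to 192, 163 and 87.3 FPKM (2.72 ± 0.42) and stood at 0.588, 1.01 and 1.26 FPKM at 120 DAF. A glycosyltransferase of the flavone and flavonol pathway (Aco005395) rose from 2.97, 2.56 and 1.32 to 11.6, 12.3 and 11.8 FPKM (2.37 ± 0.36), the one call among 81 tested flavonoid genes. In that list 16 (19.8%) were higher and 3 (3.70%) lower by unadjusted p, against 8.68 and 8.26% of all genes. Its median log2 fold change was 0.45, and 0.28 without replicate 3 of 90 DAF. In phenylpropanoid and lignin synthesis edgeR called 0 of 138, with 32 (23.2%, against 16.9% of all genes) at an unadjusted p under 0.05. DESeq2 called 11 higher and 8 lower, and limma called 4 higher, where they called 8.56 and 1.74% of all genes in either direction. A basic chitinase, Aco011824, which cleaves fungal cell wall chitin, fell from 77.4, 120.4 and 83.5 to 13.5, 15.1 and 16.5 FPKM (-2.63 ± 0.41). A pectate lyase (Aco014640, chosen after its values were seen) stood at 10.2, 10.1 and 10.6 and then 37.1, 42.7 and 34.0 FPKM (1.87, edgeR adjusted p = 0.0554), and at 0.613, 1.52 and 0.543 FPKM at 120 DAF.

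A pair of DNA replication genes fell. The catalytic subunit of DNA polymerase alpha (Aco018220), which starts new strands, fell from 2.44, 2.48 and 3.44 to 0.902, 0.706 and 0.480 FPKM (-2.02 ± 0.32), and the small subunit of DNA polymerase delta (Aco011910) from 27.2, 27.9 and 30.9 to 14.9, 13.8 and 11.6 FPKM (-1.104 ± 0.14), with edgeR adjusted p of 0.0398 and 0.0299. Of 50 tested replication genes these were the 2 called (4.0%, against 0.786% of all genes). By unadjusted p 8 (16.0%, against 8.26% of all genes) were lower and 1 higher. The median log2 fold change of the 50 was -0.09, and 0.01 without replicate 3 of 90 DAF. The kinesin and tubulin list stood the other way. Its 51 tested genes summed to 1187, 1302 and 1345 FPKM at 60 DAF and 1643, 1567 and 2046 FPKM at 90 DAF. Positive log2 fold changes were fitted for 33 of the 51, and for 8884 of all 16791 genes. By unadjusted p 9 (17.6%) were higher and 5 (9.80%) lower, against 8.68 and 8.26% of all genes. The lower share was thus near the background. The median was 0.20, against 0.03 over all genes tested, or 0.09 without replicate 3 of 90 DAF. A pair of called genes had no count at 90 DAF. The beta-tubulin Aco012035, the one call of that list and a minor gene of it by level, had 4.62, 2.05 and 5.98 FPKM at 60 DAF and was at least 146-fold lower at 90 DAF, against the same floor. With 1 FPKM reached in fewer than 3 libraries of 120 DAF, it passed the filter through 60 DAF. Aco002263, annotated with growth factor activity in the extracellular region, had 7.74, 3.83 and 6.47 FPKM and was at least 85.5-fold lower. Both had counts again at 120 DAF, the second with 4.38, 1.23 and 4.34 FPKM. The reverse held for Aco015873, annotated with sequence-specific DNA binding, which had 0 counts at 60 DAF and 4.59, 3.13 and 8.34 FPKM at 90 DAF, at least 227-fold higher, with a trace in 1 library of 120 DAF. It passed the filter only through the 3 libraries of 90 DAF, where it is high, so its call rests on a gene selected by the age tested.

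Among the largest other changes, a transcription coregulator annotated with histone acetylation (Aco024209) fell from 144, 354 and 378 to 18.8, 28.8 and 9.72 FPKM (-3.96 ± 0.46, edgeR adjusted p = 0.0277) and was back at 223, 208 and 225 FPKM at 120 DAF. A pair of peptidase genes fell, the serine carboxypeptidase Aco013336 from 12.6, 16.1 and 16.9 to 1.46, 0.667 and 0.606 FPKM (-4.07 ± 0.41) and the aspartic endopeptidase Aco009869 from 10.5, 23.8 and 9.07 to 0.0539, 0.0639 and 0 FPKM. An acyltransferase gene (Aco010653) fell from 75.1, 79.6 and 50.2 to 9.95, 6.22 and 14.3 FPKM (-2.73 ± 0.41) and stood at 3.99, 8.13 and 5.20 FPKM at 120 DAF. A gene annotated to the regulation of photomorphogenesis (Aco006197) rose from 101, 111 and 132 to 253, 423 and 248 FPKM (1.41 ± 0.23), with replicate 2 of 90 DAF the highest. NBR1 (Aco013530), a receptor of selective autophagy, fell from 471, 475 and 499 to 280.0, 269 and 229 FPKM (-0.91 ± 0.14). In these genes, as in all 132 calls and in 22.6% of all genes tested, no library of one age lay within the range of the other.

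**Figure D5:**
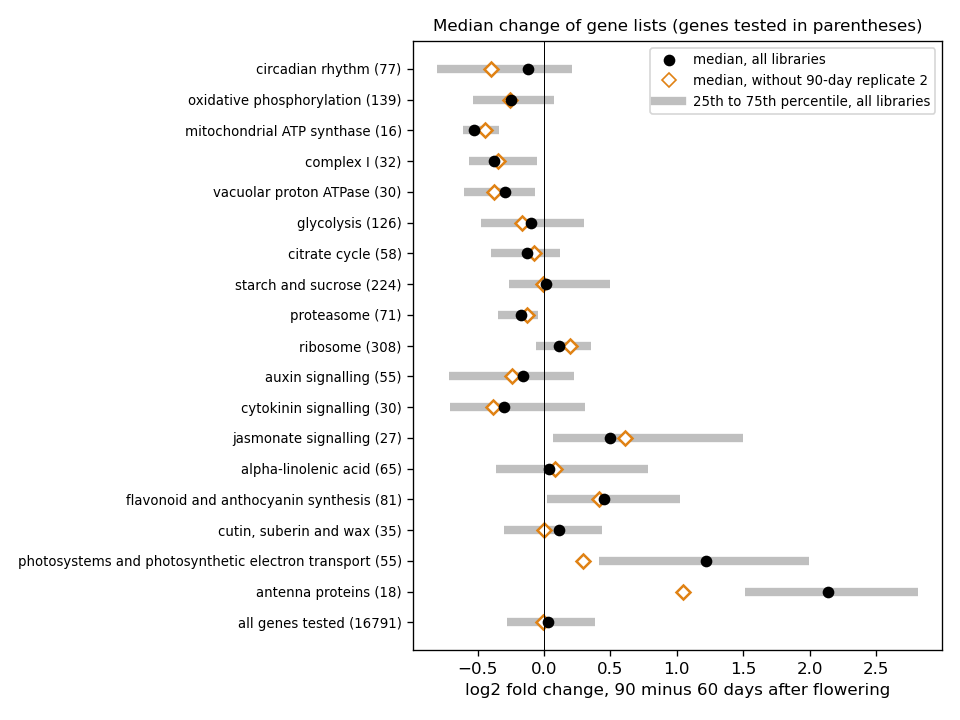
Median log2 fold change (90 minus 60 DAF) of 18 gene lists and of all genes tested, with all libraries (filled circles) and without replicate 2 of 90 DAF (open diamonds), and grey bars from the 25th to the 75th percentile. The photosynthesis lists move most without that library, the antenna list from 2.14 to 1.05, while oxidative phosphorylation stays at -0.25 and -0.26.

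The protein synthesis and turnover lists held no calls. In the ribosome list edgeR called 0 of 308 tested genes, while unadjusted p-values under 0.05 went to 22 higher and 7 lower genes. DESeq2 called 12 higher and 2 lower, and limma called 0, where they called 8.56 and 1.74% of all genes in either direction. The 9.42% at an unadjusted p under 0.05 compares with 16.9% of all genes. In the proteasome list edgeR called 0 of 71. Unadjusted p-values under 0.05 went to 14 lower (19.7%, against 8.26% of all genes) and 2 higher genes (2.82%, against 8.68%). DESeq2 called 5 lower and 1 higher, and limma called 0. Its median log2 fold change was -0.17, with 56 of its genes below 0.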

How the data were processed

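RNA of pineapple peel was sequenced in 9 libraries, 3 per age, with ages given in days after flowering (DAF). The authors deposited 1 table with a whole-number read count and an FPKM value per gene and library, per the file headers. All 65846 values with a count of 0 were written as 0.0001 FPKM in the deposited table and were read as 0. The submitters' processing notes name Bowtie 0.12.2, HISAT2 2.0 and StringTie 1.3.0, while the sources used here do not give their roles, the genome build or the use of strand. Reads of near-identical copies, overlapping genes and antisense partners may therefore be mixed.

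Genes that reached 1 FPKM in 3 or more of the 9 libraries were tested on the counts with the quasi-likelihood test of edgeR 4.0.16 (R 4.3.3), with TMM scaling, all 9 libraries in the fit and the contrast of 90 minus 60 DAF. Adjusted p-values are Benjamini-Hochberg over 16791 genes, with a threshold of 0.05. Log2 fold changes carry the TMM scaling, which the FPKM values do not, and are given with their SE. The test was checked on simulated counts. Alternatives used DESeq2 1.42.0, limma 3.58.1 on log2(FPKM + 1) or log2(FPKM + 0.1), other scalings and filters, a replicate block, the 6 libraries alone and leaving out each library.

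Gene lists came from the KEGG, GO and ortholog columns, and roles of genes from those columns and textbook knowledge. The comparison, lists and named genes were chosen with earlier results of these data known. Named genes are annotated called genes, called list members, the most abundant member of a list over the 6 libraries, and called genes with 0 counts at an age. Any other gene is said to have been chosen after its values were seen.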

Additional observations from a re-analysis of the deposited data

How the results depend on the processing

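Calls by edgeR numbered 132 (54 higher, 78 lower) and depended on the setting. They numbered 54 (16 higher, 38 lower) with only the 6 libraries of 60 and 90 DAF in the fit, 85 (36 and 49) with total count scaling and 76 (27 and 49) with no filter on low values, and 131 with median-ratio scaling and 116 with the stricter filter of 5 FPKM. DESeq2 called 1437 (707 and 730), limma 293 (143 and 150) on log2(FPKM + 1) and 209 (100 and 109) on log2(FPKM + 0.1). Leaving out 1 library gave 0 to 276 calls, 0 to 129 higher and 0 to 147 lower. An alternative chosen after seeing the data, the 2 ages alone without replicate 2 of 90 DAF, called 0, with 0 higher and 0 lower, and 3151 at an unadjusted p under 0.05. The causes of these differences were not tested. With the replicate number as a block the count was 10 (2 higher, 8 lower), 9 of them among the 132. Deviations of same-numbered libraries of 60 and 90 DAF from the mean of their age correlated at r = -0.156, -0.0175 and -0.339. Over all pairings of the 2 ages r ran from -0.339 to 0.312. The labels do not say whether equal numbers mark a shared batch, which was not tested. None of the 107 annotated called genes changed direction under any setting. A further 69 genes were not called, being the most abundant members of lists or genes chosen after their values were seen. Not all of them are named in the text. Of the 69, 32 were called under at least 1 setting and 16 changed sign under at least 1.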
